A study of Arabidopsis thaliana with 6 samples.

Results

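The genes described here make, activate, degrade, sense and answer cytokinin in *Arabidopsis thaliana* root tips. They were chosen by locus, from gene families known for these roles. No expression value entered that rule, though earlier results of these data were known when it was set. They are 46 of the 24379 genes in the deposited expression table: 6 *IPT* genes, 2 *CYP735A* genes, 6 *LOG* genes, 7 *CKX* genes, 3 receptor genes, 5 *AHP* genes, 7 type-B and 10 type-A response regulator genes. All 46 were found in the table under their own locus. The samples were roots of 7-day-old wild type seedlings of the accession Col-0, grown hydroponically in diluted modified MGRL solution. Al-treated seedlings gave 3 samples and control seedlings without Al gave 3 samples, and both groups had the same genotype, age and medium. Per the study's methods, Al was 25 µM AlCl3 for 3 h and the tissue was the last 0.5 cm or so of the root, so each sample mixes the cell types of the root cap, meristem, transition zone and the zones above it. The labels do not say whether the 3 samples of a group came from separate cultures, so the p-values measure the spread between these samples, which may be technical.

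Cytokinins are adenine derivatives with a side chain. Isopentenyltransferases (IPT) attach the side chain, CYP735A cytochrome P450 enzymes hydroxylate it to give the trans-zeatin type, LOG enzymes release the active free base from its nucleotide, and cytokinin oxidases (CKX) cut the side chain off irreversibly. The signal is read by AHK receptors, which are histidine kinases, passed to AHP phosphotransfer proteins and then to response regulators (ARR). Type-B ARRs are transcription factors that switch on target genes, among them several type-A ARRs, and type-A ARRs dampen the signal. In the root tip, cytokinin is known for promoting the passage of cells from the meristem to differentiation at the transition zone.

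Expression was given as FPKM, fragments scaled by transcript length and by the number of mapped fragments, which can be compared between genes of different length. From the steps between low values, each sample held an estimated 21800000 to 22000000 fragments. The treatment was checked on *ALMT1* (AT1G08430), which encodes an Al-activated malate channel. It had 13.1, 15.7 and 17.4 FPKM in the Al samples, against 0.47, 0.73 and 0.50 FPKM in the control samples. *ALS3*, an Al tolerance transporter gene, was also higher after Al, with a log2 fold change of 0.48 (limma adjusted p = 0.00296). Of the 6 root tip markers, *PLT1*, *PLT2* and *SMB* were lower after Al and *SHR* and *SCR* were not called, and *WOX5* was too low to test (0.58 to 1.0 FPKM). Their summed level was 54.9 to 57.5 FPKM in Al samples and 64.8 to 70.0 FPKM in control samples. Both root hair zone markers, *COBL9* and *EXPA7*, were lower, and their sum was 6.77 to 8.63 FPKM in Al samples against 23.1 to 28.3 FPKM in control samples. Of the 3 shoot markers only *RBCS1A* was tested, and it was not called. *LHCB1.1* and *LHCB2.1* were at or below 0.25 FPKM, each listed at 0 in at least 1 sample, and the sum of the 3 was 4.59 to 8.98 FPKM in Al samples and 4.85 to 6.89 FPKM in control samples. The part of these shifts in the results below was not tested, and in such bulk samples fewer cells of a type and less RNA per cell cannot be told apart.

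Of the 46 genes, 38 had at least 1 FPKM in at least 3 samples and were tested. After Al, 10 of the 38 were higher (26.3%) and 17 were lower (44.7%), and 11 were not called. Among all 18463 genes tested, 21.3% were called higher and 38.5% lower, so both shares of the cytokinin genes lay near those of the whole table. *CKX3* passed the filter only through the control samples and had to differ, and without it 16 of 37 (43.2%) were lower. A call is a limma adjusted p under 0.05, and fold changes are Al over control on the log2(FPKM + 1) scale, which understates the change of genes near or below 1 FPKM. The median log2 fold change was -0.22 over the 38 genes and -0.13 over all genes tested. In 9 of the 38 genes all Al samples were above all control samples, against 23.3% of all genes tested, and in 16 all Al samples were below, against 42.9%. The calls varied by family, but the families are small and the difference between them was not tested. Of 6 *LOG* genes 5 were called higher. None of the 3 receptor, 5 type-B *ARR* and 2 *CYP735A* genes tested was called higher, against 21.3% of all genes tested. The remaining 8 genes (*IPT1*, *CKX2*, *CKX7*, *ARR14*, *ARR15*, *ARR16*, *ARR17* and *ARR18*) were not tested, and 7 of them stayed under 0.6 FPKM in every sample.

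**Figure D1:**
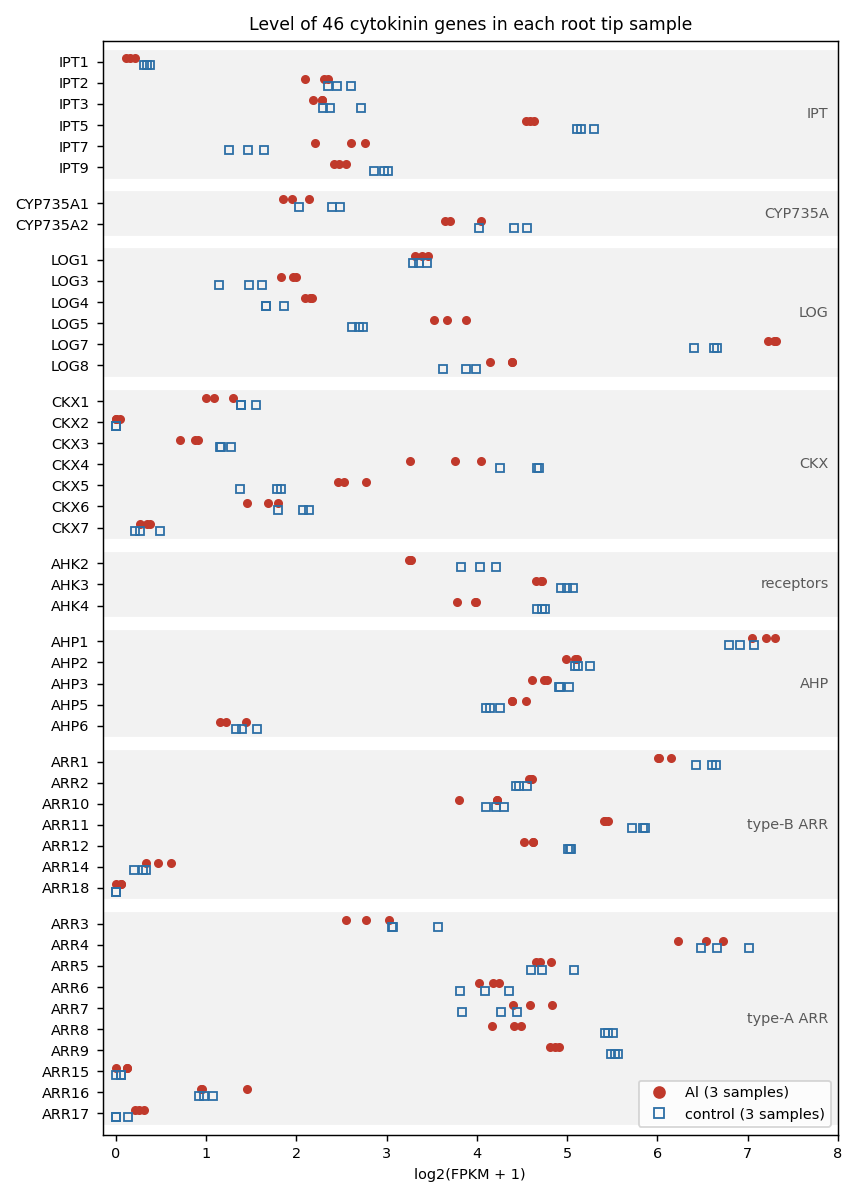
Level of each of the 46 cytokinin genes as log2(FPKM + 1), with red points for the 3 Al samples and open blue squares for the 3 control samples, grouped by family. *LOG7*, *AHP1*, *ARR4* and *ARR1* stand highest, and 7 of the 8 untested genes lie under 0.6 FPKM in every sample.

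The *IPT* family shifted between its members after Al. The adenylate IPTs start cytokinin synthesis, whereas IPT2 and IPT9 modify tRNA, which is a source of cis-zeatin. *IPT5* (AT5G19040, chr5:6361776-6363713, minus strand) was the most abundant and had 23.1, 22.3 and 23.8 FPKM in the Al samples, against 38.3, 33.5 and 34.5 FPKM in the control samples. The groups did not overlap, and the Al samples lay within 2 FPKM of each other. This gave a log2 fold change of -0.60 (SE 0.072, limma adjusted p = 0.000112). *IPT7* (AT3G23630, chr3:8488695-8490266, plus strand) moved the other way, with 5.75, 5.10 and 3.60 FPKM in Al samples and 1.76, 1.39 and 2.12 FPKM in control samples. Every Al sample was above every control sample, although Al replicate 3 was well below the other Al samples. The mean of *IPT7* was 4.82 ± 1.1 FPKM after Al and 1.76 ± 0.365 FPKM in the control (SD, n = 3 each), a ratio of 2.74 and a log2 fold change of 1.07 (SE 0.16, limma adjusted p = 0.000411).

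The remaining *IPT* genes, *IPT4*, *IPT6* and *IPT8*, were not in the deposited table. Shares are therefore given within the adenylate IPTs among the 46 genes (*IPT1*, *IPT3*, *IPT5* and *IPT7*). Of their summed FPKM, *IPT5* held 72.7 ± 3.36% in Al samples and 84.4 ± 0.795% in control samples (SD, n = 3 each). *IPT7* held 15.1 ± 3.14% in Al samples and 4.19 ± 0.883% in control samples. *IPT5* thus stayed the leading synthesis gene in all 6 samples. *IPT3* (AT3G63110), a nitrate-responsive synthesis gene, had 3.85, 3.85 and 3.53 FPKM in Al samples and 5.55, 4.19 and 3.91 FPKM in control samples, and its log2 fold change of -0.22 was not called (95% interval -0.49 to 0.06, limma adjusted p = 0.153). *IPT1* (AT1G68460) was at 0.08 to 0.16 FPKM in Al samples and 0.24 to 0.30 FPKM in control samples, where 3 fragments are worth 0.081 FPKM. With no filter it was called lower (log2 fold change -0.19, limma adjusted p = 0.014). Of the tRNA-type genes, *IPT9* (AT5G20040) was lower (log2 fold change -0.47, limma adjusted p = 0.0018), while *IPT2* (AT2G27760) was not called (-0.22, limma adjusted p = 0.12). Summed over the 6 genes, *IPT* expression was 41.8, 39.8 and 38.7 FPKM in Al samples, against 56.2, 50.9 and 52.7 FPKM in control samples.

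The hydroxylases of the trans-zeatin step had lower means after Al. *CYP735A2* (AT1G67110) had 12.0, 11.6 and 15.6 FPKM in Al samples and 22.4, 20.3 and 15.2 FPKM in control samples. Al replicate 3 lay above control replicate 3, so the groups overlapped. The log2 fold change was -0.53 (SE 0.15, limma adjusted p = 0.0131), and the call was lost without Al replicate 2 (-0.45, limma adjusted p = 0.0506) and under median-ratio scaling (-0.39, limma adjusted p = 0.0735). *CYP735A1* (AT5G38450) had 2.62 to 3.40 FPKM in Al samples and 3.09 to 4.59 FPKM in control samples. Its log2 fold change of -0.32 was not called (limma adjusted p = 0.0707) with all samples and was called without control replicate 3 (-0.45, limma adjusted p = 0.0127) and under TPM scaling (-0.40, limma adjusted p = 0.0374).

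The *LOG* genes, which carry the last step of activation, were mostly higher after Al. Of 6 genes, 5 were higher after Al and none was lower, against 21.3% and 38.5% of all genes tested. In those 5 no Al sample overlapped a control sample, and 23.3% of all genes tested had all Al samples above all control samples. *LOG7* (AT5G06300, chr5:1921548-1925407, minus strand) was the most abundant, with 156, 158 and 149 FPKM in Al samples and 97.6, 101 and 84.0 FPKM in control samples. Its mean was 1.64 times the control mean, and its log2 fold change was 0.71 (SE 0.077, limma adjusted p = 6.14e-05). *LOG5* (AT4G35190, chr4:16746189-16748455, plus strand) had 11.7, 13.7 and 10.5 FPKM in Al samples and 5.12, 5.45 and 5.67 FPKM in control samples. It had the highest ratio of the 6 *LOG* genes, 2.21, with a log2 fold change of 1.01 (SE 0.10, limma adjusted p = 4.58e-05).

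*LOG3* (AT2G37210) was lower in abundance, with 2.90, 2.99 and 2.56 FPKM in Al samples and 1.21, 1.77 and 2.06 FPKM in control samples, and a log2 fold change of 0.52 (SE 0.13, limma adjusted p = 0.00849). *LOG4* (AT3G53450) and *LOG8* (AT5G11950) had log2 fold changes of 0.41 (limma adjusted p = 0.00658) and 0.47 (limma adjusted p = 0.00479). *LOG1* (AT2G28305) was the exception, at 8.92 to 9.95 FPKM in Al samples and 8.76 to 9.89 FPKM in control samples, with a log2 fold change of 0.02 (95% interval -0.17 to 0.21, limma adjusted p = 0.847). With a GC correction it turned to -0.48 (limma adjusted p = 0.00478), and *LOG3* (0.30) and *LOG8* (0.23) missed the threshold. The summed *LOG* level was 200.1, 207.3 and 195.1 FPKM in Al samples and 127, 135 and 116 FPKM in control samples, a ratio of means of 1.59. Most of that sum was *LOG7*, which held 76.9 ± 1.14% of it in Al samples and 74.5 ± 2.24% in control samples (SD, n = 3 each). The share of *LOG7* therefore differed by about as much as the spread between the control samples.

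**Figure D2:**
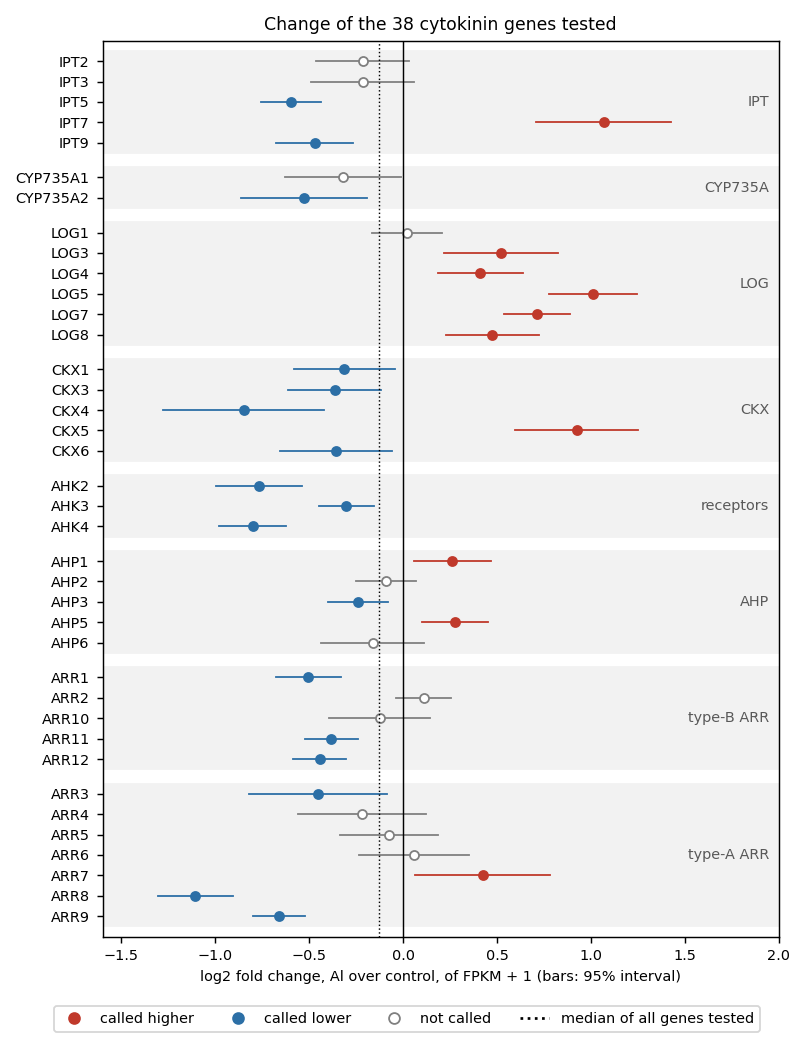
Log2 fold change, Al over control, of FPKM + 1 for the 38 genes tested, with 95% intervals from limma. Red points were called higher, blue points lower and open points were not called, and the dotted line marks the median of all genes tested (-0.13). The *LOG* genes lie at or above 0 and the 3 receptors lie below -0.13.

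The *CKX* genes encode the degrading enzymes, and 4 of the 5 that were tested were lower while *CKX5* was higher. Without *CKX3*, which reached the filter only in control samples, 3 of 4 were lower, against 38.5% of all genes tested. *CKX4* (AT4G29740, chr4:14566183-14569380, plus strand), a gene known to be induced by cytokinin in roots, had 8.58, 12.6 and 15.5 FPKM in Al samples and 24.5, 24.7 and 18.1 FPKM in control samples. All Al samples were below all control samples, with a wide spread in both groups and a log2 fold change of -0.85 (SE 0.19, limma adjusted p = 0.00402). *CKX5* (AT1G75450, chr1:28314458-28318375, minus strand) had 4.76, 5.82 and 4.52 FPKM in Al samples and 2.45, 1.59 and 2.56 FPKM in control samples. It was called higher with a log2 fold change of 0.92 (SE 0.14, limma adjusted p = 0.000539). This gene overlaps annotated genes on both strands and shares 7.12% of its 50-base stretches with one of them, AT1G09553, so part of its fragments could belong to a neighbour.

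The make-up of the family moved with these opposite changes. *CKX4* held 55.7 ± 6.91% of the summed *CKX* FPKM in Al samples and 72.3 ± 3.44% in control samples, and *CKX5* held 23.7 ± 4.78% in Al samples and 7.28 ± 2.43% in control samples (SD, n = 3 each). *CKX1* (AT2G41510), *CKX3* (AT5G56970) and *CKX6* (AT3G63440) were low genes, between 0.64 and 3.40 FPKM, with log2 fold changes of -0.31, -0.36 and -0.36. Their limma adjusted p-values were 0.0456, 0.0177 and 0.0415, and none of the calls held under all alternatives. The *CKX1* and *CKX6* calls were lost under the GC correction and under median-ratio and quantile scaling, and that of *CKX3* under the GC correction (0.0883) and median-ratio scaling (0.0503). *CKX1* also lost it without Al replicate 2 or 3 or any 1 control sample (limma adjusted p from 0.0691 to 0.141). *CKX3* lost it without Al replicate 2 (0.0615) or control replicate 1 (0.0602), and *CKX6* without Al replicate 1 or 2 or control replicate 1 or 2 (limma adjusted p from 0.0728 to 0.14). *CKX3* passed the filter only through the control samples (0.64 to 0.87 FPKM in Al samples, against 1.23 to 1.41 FPKM in control samples), so its call is no independent result. *CKX2* (AT2G19500) was listed at 0 in every sample but Al replicate 3, which had 0.03 FPKM. *CKX7* (AT5G21482), which encodes the cytosolic enzyme, was at 0.20 to 0.30 FPKM in Al samples and 0.16 to 0.40 FPKM in control samples.

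All 3 cytokinin receptor genes were lower after Al, where 38.5% of all genes tested were called lower. In none of the 3 did the groups overlap, and 42.9% of all genes tested had all Al samples below all control samples. *AHK4* (AT2G01830, chr2:362983-369707, minus strand), needed for the vascular pattern of the root, had 14.8, 14.9 and 12.7 FPKM in Al samples and 25.5, 24.4 and 25.9 FPKM in control samples. Its log2 fold change was -0.80 (SE 0.079, limma adjusted p = 3.39e-05). *AHK2* (AT5G35750, chr5:13911283-13916805, minus strand) was nearly equal in the Al samples at 8.53, 8.56 and 8.62 FPKM, against 13.2, 15.3 and 17.6 FPKM in the control samples, with a log2 fold change of -0.77 (SE 0.10, limma adjusted p = 0.000205). Both had means below 0.6 of the control mean.

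*AHK3* (AT1G27320), the most abundant receptor gene, had 24.2, 25.4 and 25.1 FPKM in Al samples and 29.4, 31.0 and 32.5 FPKM in control samples. Its log2 fold change of -0.30 (SE 0.065, limma adjusted p = 0.0032) was smaller, with a 95% interval of -0.45 to -0.16 against -0.98 to -0.62 for *AHK4* and -1.0 to -0.54 for *AHK2*, and the difference between the genes was not tested. Under median-ratio scaling, which sets the median change of all genes to about 0, the *AHK3* call was lost (-0.16, limma adjusted p = 0.0588), as it was with a GC correction (-0.20, limma adjusted p = 0.0525). *AHK3* held 52.3 ± 1.59% of the receptor FPKM in Al samples and 43.3 ± 0.555% in control samples, and *AHK4* held 29.6 ± 2.01% in Al samples and 35.3 ± 1.79% in control samples (SD, n = 3 each). The receptor sum was 47.5, 48.8 and 46.4 FPKM in Al samples and 68.1, 70.8 and 76.0 FPKM in control samples.

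The *AHP* genes changed little. *AHP1* (AT3G21510), the most abundant, had 146, 157 and 132 FPKM in Al samples and 133, 119 and 110 FPKM in control samples. Al replicate 3 lay just below control replicate 1, and the log2 fold change of 0.26 (SE 0.091, limma adjusted p = 0.0317) was lost without Al replicate 1 (limma adjusted p = 0.0756), Al replicate 2 (0.12), control replicate 2 (0.0775) or control replicate 3 (0.098). The call was also lost with no mean-variance trend (0.0513), TPM scaling (0.0812) and quantile normalization (0.163). The value was 0.41 on the log2 scale under median-ratio scaling and turned to -0.10 with a GC correction (limma adjusted p = 0.256). *AHP5* (AT1G03430) was higher by 0.28 on the log2 scale (limma adjusted p = 0.0126), a call that was lost without Al replicate 1 (0.0503) or control replicate 2 (0.0532). The GC correction left 0.06 (limma adjusted p = 0.549), and median-ratio scaling gave 0.42 (limma adjusted p = 0.00159). *AHP3* (AT5G39340) was lower (-0.24, limma adjusted p = 0.0165), and this was lost without control replicate 3 (0.0506) and under median-ratio scaling (-0.10, limma adjusted p = 0.202), while the GC correction gave -0.47 (limma adjusted p = 0.00264). *AHP2* (AT3G29350) was not called (-0.09, 95% interval -0.25 to 0.07; with a GC correction -0.36, limma adjusted p = 0.00491), nor was *AHP6* (AT1G80100; -0.16, 95% interval -0.44 to 0.11). AHP6 lacks the histidine that carries the phosphoryl group and inhibits the relay, and its transcript stood at 1.22 to 1.72 FPKM in Al samples and 1.52 to 1.96 FPKM in control samples.

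**Figure D3:**
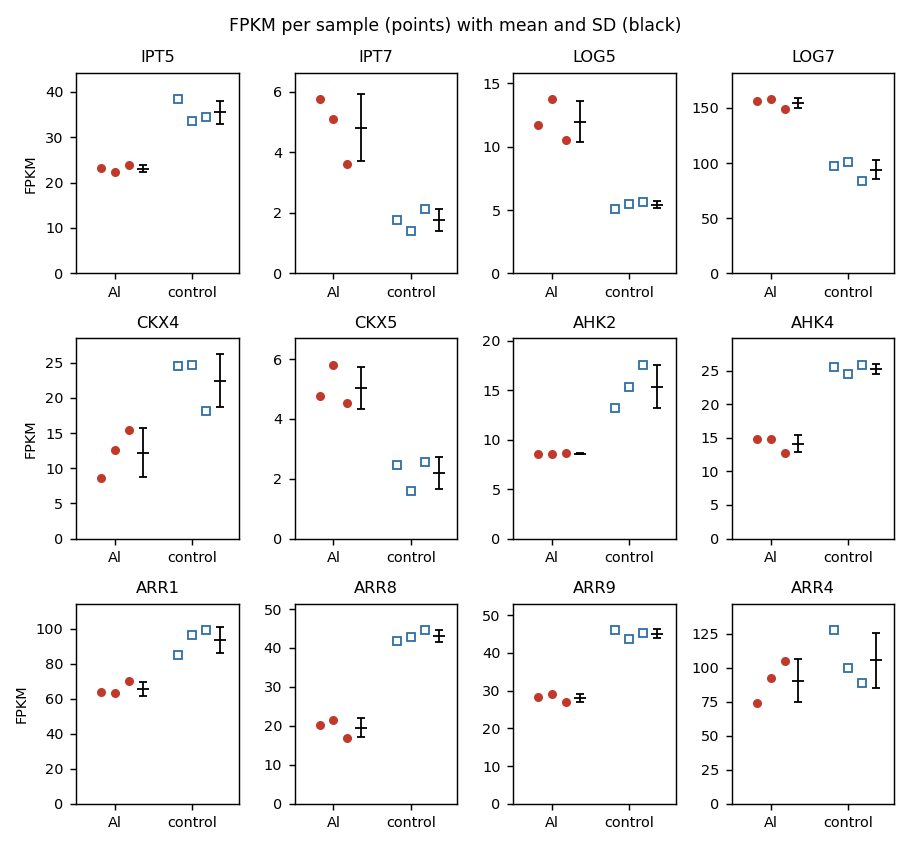
FPKM in each sample for 12 of the cytokinin genes, with Al samples as red points and control samples as open blue squares, and the mean and SD of each group in black (n = 3). The groups are apart in 11 of the panels, and in *ARR4* they overlap.

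Among the type-B regulators, the transcription factors of the pathway, 3 of 5 tested were lower and none was higher. For all genes tested these shares were 38.5% lower and 21.3% higher. *ARR1* (AT3G16857, chr3:5755714-5759443, plus strand), which acts at the root transition zone, was the most abundant. It had 63.9, 63.1 and 70.0 FPKM in Al samples and 85.2, 96.5 and 99.5 FPKM in control samples, with no overlap and a log2 fold change of -0.51 (SE 0.077, limma adjusted p = 0.000453). *ARR12* (AT2G25180) and *ARR11* (AT1G67710) were lower by similar steps, with log2 fold changes of -0.44 (limma adjusted p = 0.000301) and -0.38 (limma adjusted p = 0.000747), the second being -0.24 under median-ratio scaling. *ARR10* (AT4G31920), a close relative of *ARR1* and *ARR12*, was at 13.0 to 17.7 FPKM in Al samples and 16.1 to 18.8 FPKM in control samples and was not called (-0.12, 95% interval -0.39 to 0.14). *ARR2* (AT4G16110) was not called either (0.11, 95% interval -0.04 to 0.26), and median-ratio scaling (0.25, limma adjusted p = 0.0141) and the GC correction (0.22, limma adjusted p = 0.0469) brought it past the threshold. *ARR14* (AT2G01760) and *ARR18* (AT5G58080) were below 0.6 FPKM throughout.

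Several type-A genes are primary targets of cytokinin signalling, so their promoters are a place where type-B factors act. Type-B ARRs are known to bind a short core, written AGATC or AGATT. It was counted on both strands of the 250 bases before each annotated start (RefSeq annotation of TAIR10.1). AGATC was found in 26.3%, AGATT in 63.2% and either in 72.8% of 24173 promoters, and 35 of the 46 cytokinin genes (76.1%) had at least 1 match, so a match is common in this window. Each of the 10 type-A promoters had at least 1. The promoters of the type-A gene called higher (*ARR7*, chr1:6579315-6579564, minus strand), of *ARR5* as a type-A gene that was not called (chr3:17760951-17761200, minus strand) and of the pair with the clearest decrease (*ARR8*, chr2:17221590-17221839, plus strand, and *ARR9*, chr3:21108809-21109058, plus strand) are shown to place these matches. They run 5′ to 3′ towards the start, and the capitals mark both cores on either strand.
ARR7: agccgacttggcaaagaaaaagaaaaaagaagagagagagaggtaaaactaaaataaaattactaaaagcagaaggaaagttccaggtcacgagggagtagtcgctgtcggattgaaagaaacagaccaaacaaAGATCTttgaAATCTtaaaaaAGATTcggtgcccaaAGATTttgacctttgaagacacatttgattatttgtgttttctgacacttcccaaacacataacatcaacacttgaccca
ARR5: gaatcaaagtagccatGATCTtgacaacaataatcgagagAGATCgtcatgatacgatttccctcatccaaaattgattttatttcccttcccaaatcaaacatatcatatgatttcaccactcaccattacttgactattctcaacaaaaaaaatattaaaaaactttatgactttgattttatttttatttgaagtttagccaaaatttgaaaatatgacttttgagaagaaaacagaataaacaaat
ARR8: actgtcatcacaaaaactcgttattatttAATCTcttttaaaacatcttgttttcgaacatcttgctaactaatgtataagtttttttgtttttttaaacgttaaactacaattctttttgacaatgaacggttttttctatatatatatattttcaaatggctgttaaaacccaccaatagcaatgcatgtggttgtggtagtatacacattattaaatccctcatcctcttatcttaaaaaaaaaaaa
ARR9: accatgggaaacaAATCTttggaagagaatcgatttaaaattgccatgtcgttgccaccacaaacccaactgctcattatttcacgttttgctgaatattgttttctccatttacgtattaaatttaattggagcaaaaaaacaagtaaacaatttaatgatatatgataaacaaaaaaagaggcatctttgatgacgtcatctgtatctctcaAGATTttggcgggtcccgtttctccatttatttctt

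*ARR7* had 5 matches, 2 of them AGATC read on both strands of AGATCT, and *ARR5* had 2, both AGATC. *ARR8* had 1 and *ARR9* had 2, all AGATT. Of the other tested type-A genes, *ARR4* and *ARR6* were not called and had 1 AGATC and 3 AGATT. *ARR3*, called lower, had 1 AGATT. The median over all promoters was 1 match. These are matches of letters and not shown to be bound. Of the genes called higher 7 of 10 had a match, and of those called lower 13 of 17, which are shares close to that of all promoters.

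The tested type-A genes did not move together: of 7, 1 was higher, 3 were lower and 3 were not called. Among all genes tested, 21.3% were called higher and 38.5% lower. *ARR8* (AT2G41310, chr2:17221840-17224880, plus strand) had 20.2, 21.5 and 16.9 FPKM in Al samples and 41.7, 42.7 and 44.7 FPKM in control samples. This was the most negative log2 fold change of the 38 genes tested, -1.11 (SE 0.089, limma adjusted p = 9.25e-06). *ARR9* (AT3G57040, chr3:21109059-21111567, plus strand), its closest relative, had 28.2, 29.2 and 27.0 FPKM in Al samples and 46.2, 43.8 and 45.3 FPKM in control samples. The log2 fold change was -0.66 (SE 0.061, limma adjusted p = 2.26e-05), and in neither gene did the groups overlap. With a GC correction the value of *ARR9* was -1.13 and its call was kept. Both overlap an annotated gene on the other strand, and *ARR8* shares 3.38% of its 50-base stretches with other genes.

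The other type-A genes showed smaller differences and more spread. *ARR4* (AT1G10470), the most abundant, had 74.0, 92.3 and 105 FPKM in Al samples and 128, 100.1 and 88.5 FPKM in control samples. The groups overlapped, and its log2 fold change was -0.22 (95% interval -0.56 to 0.12, limma adjusted p = 0.241). *ARR5* (AT3G48100), widely used as a reporter of cytokinin response, had 27.3, 25 and 24.1 FPKM in Al samples and 32.6, 23.3 and 25.4 FPKM in control samples. Its log2 fold change was -0.07 (95% interval -0.33 to 0.19, limma adjusted p = 0.604). *ARR6* (AT5G62920) was at 15.3 to 17.9 FPKM in Al samples and 13.1 to 19.5 FPKM in control samples (0.06, 95% interval -0.23 to 0.35). With a GC correction, *ARR4* (-0.50, limma adjusted p = 0.0283) and *ARR5* (-0.41, limma adjusted p = 0.00432) were called lower, and *ARR6* was not called.

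*ARR7* (AT1G19050) had 23.1, 27.6 and 20.1 FPKM in Al samples and 20.8, 18.2 and 13.3 FPKM in control samples. The groups overlapped, and its log2 fold change was 0.42 (SE 0.16, limma adjusted p = 0.0433). That call was lost under 8 of the 14 alternatives, among them the GC correction (0.26, limma adjusted p = 0.0704), with limma adjusted p-values of 0.0793 without Al replicate 1, 0.152 without Al replicate 2, 0.0655 without control replicate 2 and 0.123 without control replicate 3. *ARR3* (AT1G59940) was lower, with 4.83, 7.13 and 5.81 FPKM in Al samples and 10.8, 7.42 and 7.31 FPKM in control samples, and a log2 fold change of -0.45 (SE 0.16, limma adjusted p = 0.0374). This call was also lost under 8 alternatives, among them without Al replicate 1 (0.122), without Al replicate 3 (0.0818) and without control replicate 1 (0.125), where the log2 fold change was -0.29. Control replicate 1 was the highest control sample in 6 of the 7 tested type-A genes, and in 13 of all 38 genes tested. *ARR8* and *ARR9* together held 22.6 ± 2.17% of the summed type-A FPKM in Al samples and 33.7 ± 4.28% in control samples (SD, n = 3 each).

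Of the untested type-A genes, *ARR16* (AT2G40670) came closest to the filter, with 0.94, 0.92 and 1.74 FPKM in Al samples and 1.1, 0.89 and 0.97 FPKM in control samples. *ARR17* (AT3G56380) was at 0.16 to 0.24 FPKM in Al samples and 0 to 0.10 FPKM in control samples, all at or under about 3 estimated fragments, and *ARR15* (AT1G74890) was at 0 to 0.09 FPKM in Al samples and 0 to 0.04 FPKM in control samples. With no filter on low values, *ARR17* was called higher (log2 fold change 0.21, limma adjusted p = 0.0141) and *ARR15* and *ARR16* were not.

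Other cytokinin genes were listed separately, 27 in all. They were 10 remaining members of the families above and genes of transport, conjugation, base salvage, response and turnover of the pathway's proteins. Of the 27, 21 were in the table and 17 were tested. *IPT4*, *IPT6*, *IPT8*, *ARR13*, *ARR19* and *ARR21* were absent. Of those 17 tested, 3 were higher (17.6%), 8 lower (47.1%) and 6 not called, shares near the 21.3% and 38.5% of all genes tested. The genes for transport moved in opposite directions. *PUP14* (AT1G19770), which encodes an importer of cytokinin from the apoplast, had 202, 198 and 186 FPKM in Al samples and 97.2, 103 and 94.5 FPKM in control samples. The groups were far apart, with a log2 fold change of 0.98 (SE 0.064, limma adjusted p = 2.33e-06). This gene overlaps an annotated gene on the other strand. *ABCG14* (AT1G31770), the exporter for transport of trans-zeatin from root to shoot, had 14.7, 17.2 and 15.7 FPKM in Al samples and 23.8, 23.6 and 24.4 FPKM in control samples, with a log2 fold change of -0.57 (SE 0.075, limma adjusted p = 0.000201).

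The *KMD* genes encode F-box proteins that mark type-B ARRs for degradation, and 3 of the 4 were lower, against 38.5% of all genes tested. *KMD2* (AT1G15670) had 110, 128 and 181 FPKM in Al samples and 318, 329 and 296 FPKM in control samples, a log2 fold change of -1.19 (SE 0.15, limma adjusted p = 0.000177). *KMD4* (AT3G59940) had 23.7, 26.4 and 37.8 FPKM in Al samples and 45.9, 49.4 and 60.1 FPKM in control samples (log2 fold change -0.82, limma adjusted p = 0.00195). *KMD1* (AT1G80440) had 96.5, 94.5 and 121 FPKM in Al samples and 143, 146 and 158 FPKM in control samples (log2 fold change -0.52, limma adjusted p = 0.00156). In all 3 genes Al replicate 3 was the highest Al sample and still below every control sample. *KMD3* (AT2G44130) had 4.23, 13.3 and 10.7 FPKM in Al samples and 17.4, 17.6 and 12.3 FPKM in control samples. Its groups overlapped, and its log2 fold change of -0.79 was not called (limma adjusted p = 0.0564).

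The cytokinin response factors (CRF) are AP2/ERF transcription factors. Of 5 tested, 4 were lower and 1 was higher, against 38.5% and 21.3% of all genes tested. *CRF4* (AT4G27950) had 9.13, 8.92 and 8.47 FPKM in Al samples and 15.2, 15.8 and 17.6 FPKM in control samples (log2 fold change -0.80, limma adjusted p = 3.91e-05). *CRF2* (AT4G23750) had 11.1, 11.6 and 12.3 FPKM in Al samples and 19.0, 19.1 and 23.3 FPKM in control samples (log2 fold change -0.76, limma adjusted p = 0.000128). *CRF5* (AT2G46310) went the other way, with 8.81, 7.35 and 7.63 FPKM in Al samples and 5.08, 4.52 and 4.47 FPKM in control samples (log2 fold change 0.65, limma adjusted p = 0.000428). *AHP4* (AT3G16360), the remaining phosphotransfer gene, had 3.46, 1.91 and 3.24 FPKM in Al samples and 2.14, 1.54 and 1.32 FPKM in control samples. It was called higher (log2 fold change 0.52, limma adjusted p = 0.0312), but the groups overlapped, and the call was lost without Al replicate 1 (0.104), Al replicate 3 (0.0987), control replicate 2 (0.0832) or control replicate 3 (0.0938), with no filter (0.0545) and with a GC correction (0.32, limma adjusted p = 0.116).

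**Figure D4:**
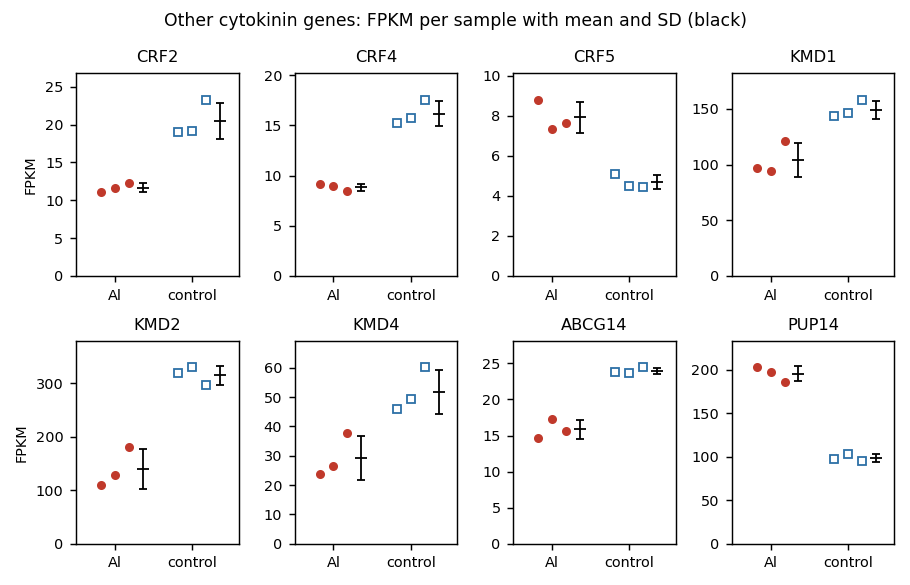
FPKM in each sample for 8 of the other cytokinin genes, with Al samples as red points, control samples as open blue squares and the mean and SD of each group in black (n = 3). *PUP14* and *CRF5* are higher in every Al sample, and the other 6 genes are lower in every Al sample.

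Over the 14 alternatives to the processing, 15 of the 27 called genes kept their call throughout. The 5 higher ones were *IPT7*, *CKX5*, *LOG4*, *LOG5* and *LOG7*, and the 10 lower ones were *IPT5*, *IPT9*, *CKX4*, *AHK2*, *AHK4*, *ARR1*, *ARR11*, *ARR12*, *ARR8* and *ARR9*. Median-ratio scaling gave 11 genes higher and 10 lower, a more even split than 10 and 17, since it removes the overall shift of -0.13. The shares of the cytokinin genes, 28.9% higher and 26.3% lower, then lay near the 29.1% and 27.0% of all genes tested under that scaling. The genes called higher had a median transcript length of 1386 bases and a GC content of 38.6%, the genes called lower 2186 bases and 41.1%, and all genes tested 1714 bases and 41.3%. The part of GC content in the calls was tested only through the GC correction, and the part of transcript length was not tested. Of the 46 genes, 10 overlap a gene annotated on the other strand (*ARR1*, *ARR6*, *ARR8*, *ARR9*, *ARR14*, *CKX1*, *CKX2*, *CKX5*, *CKX6* and *LOG4*), and the counting is not stated to use strand, so fragments of such partners cannot be told apart. On the same strand 2 genes overlap another, *CKX5* with AT1G09553 and *AHP3* with AT5G39350, and how shared fragments were counted is not given. Among the other cytokinin genes given with values, *PUP14*, *ABCG14*, *CRF4*, *KMD3*, *KMD4* and *AHP4* overlap a gene annotated on the other strand. Fragments of those partners cannot be told apart either.

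**Figure D5:**
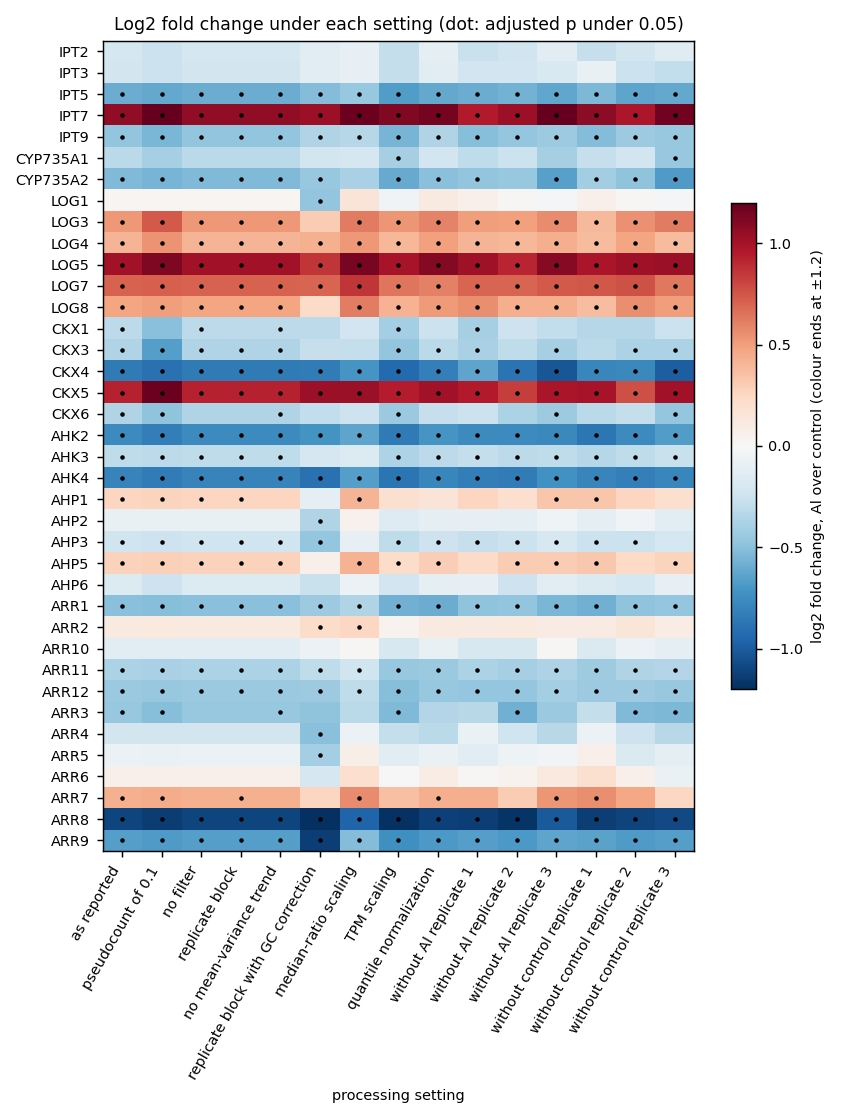
Log2 fold change, Al over control, of the 38 genes tested (rows) as reported and under each of the 14 alternatives (columns). Red is higher, blue is lower, the colour ends at ±1.2, and a dot marks a limma adjusted p under 0.05. The number of red cells with a dot and of blue cells with a dot changes between columns, while *IPT7*, *LOG5*, *LOG7*, *ARR8* and *ARR9* carry a dot in every one.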

How the data were processed

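RNA-seq was done on 3 Al and 3 control samples of wild type root tips. The authors deposited FPKM values per gene and sample in 1 table; aligner, counter and annotation are not given in the sources used here. The table repeats its 6 sample columns, and the 6 repeats held equal values and were not used. The authors' columns of log2 ratios, P and Q values were not used. Genes with at least 1 FPKM in at least 3 samples were tested on log2(FPKM + 1) with limma 3.58.1 in R 4.3.3 (mean-variance trend, Benjamini-Hochberg adjustment over 18463 genes, called at 0.05). The p-values of single genes are from this fit; the exact permutation test of 3 against 3 samples cannot go below p = 0.1 and is not given. Depth came from the step that 1 fragment makes in weakly expressed genes: with 38 bases taken off each transcript length, 86.7 to 88.2% of them lay within 0.15 of a whole fragment number, against 30% by chance. Those of the 46 genes that were tested had at least 23.6 estimated fragments in every sample. The code was tested on simulated data. Values per sample are given for genes called with an absolute log2 fold change of at least 0.5, for the most abundant gene of each family, and for uncalled genes that a comparison within a family needs; all others are given by range, fold change and count. Values per sample of *ARR3*, *ARR7* and *ARR16* fall outside this rule and were added after they were seen. GC correction means that a loess fit of each sample's deviation from the gene mean on transcript GC content was taken off, with a replicate block in the model. The 46 genes, the other lists and the tests were chosen with earlier results of these data known. Positions are those of TAIR10.1, which equal the file's for all 46 genes.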

Additional observations from a re-analysis of the deposited data

How the results depend on the processing

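The 14 alternatives were a pseudocount of 0.1, no filter, no mean-variance trend, a replicate block without and with a GC correction, median-ratio, TPM and quantile scaling, and leaving out each of the 6 samples. Genes called higher numbered 6 with the replicate block and GC correction, and genes called lower numbered 10 under median-ratio scaling; all other counts were within 1.5 times those reported. Leaving out 1 sample gave 7 to 10 higher and 13 to 16 lower. Samples with the same number did not deviate together (correlations -0.25, -0.037 and -0.22). With 3 samples per group these correlations cannot exclude that the numbers pair the samples. The replicate block alone gave 10 higher and 14 lower, and 3648 higher and 6319 lower of all genes. Signs turned for *ARR5* (0.068), *ARR10* (0.014), *AHP2* (0.053) and *SCR* (0.019) under median-ratio scaling, for *ARR6* (-0.0045) and *LOG1* (-0.042) under TPM scaling, and for *ARR6* (-0.20), *AHP1* (-0.10) and *LOG1* (-0.48) with the replicate block and GC correction. Without single samples they turned for *ARR5* (range -0.17 to 0.063), *ARR6* (-0.078 to 0.19), *ARR10* (-0.19 to 0.015), *LOG1* (-0.018 to 0.061) and *RBCS1A* (-0.16 to 0.26). Over all genes the median was -0.13 as reported, -1.2e-05 with median-ratio and -0.20 with TPM scaling, so those turns go with a common shift; the cause of the others was not tested. With the GC correction *LOG3* (0.30, limma adjusted p = 0.108) and *LOG8* (0.23, 0.0504) missed the threshold. With no filter all 46 genes were tested, and 10 were higher and 16 lower, among them the low genes *ARR17* (0.21) and *IPT1* (-0.19). Of the 8 genes under the filter, 4 had 3 or fewer estimated fragments in every sample, which limits what can be seen.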
